A study of Mus musculus with 12 samples.

Results

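The cardiac myosin genes were examined in ventricular wall RNA of mice that lack the succinate dehydrogenase assembly factor Sdhaf4 in muscle. The group held 9 genes, taken by their gene names from a table of 43686 rows: the myosin heavy chains Myh6, Myh7 and Myh7b, the light chains Myl2, Myl3, Myl4 and Myl7, the light chain kinase Mylk3 and the thick filament protein Mybpc3. All 9 were in the table, and 8 had enough counts to be tested. The study compared 6 hearts of C57BL/6 mice (C57BL/6 J in the methods) that carried floxed alleles of Sdhaf4 without a Cre transgene (WT, Sdhaf4fl/fl) with 6 hearts of mice with the same floxed alleles and the Ckmm-Cre transgene (Sdhaf4fl/fl, Ckmm-Cre, KO). The muscle creatine kinase promoter drives this Cre in heart and skeletal muscle, so Sdhaf4 stays intact in the other cells of the ventricle. The labels give these genotypes as wild type and Sdhaf4-/-, without the Cre, and the age as month 2 after birth. The study's results put these hearts at 6 weeks, whereas its reporting summary names male mice, at ages that include 8 weeks, for omics. WT carried no Cre, so an effect of Ckmm-Cre itself cannot be told apart from the loss of Sdhaf4.

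Myosin is the motor of the thick filament. Each molecule joins a pair of heavy chains, which split ATP, with regulatory and essential light chains that stiffen the neck behind each head. In the adult mouse ventricle the fast α chain (Myh6) prevails, whereas the slow β chain (Myh7) prevails before birth and is known to return in the stressed heart. Myl2 and Myl3 are the ventricular regulatory and essential light chains, and Myl7 and Myl4 are their atrial counterparts, of which Myl4 is also made in the fetal ventricle. Mylk3 phosphorylates Myl2, and Mybpc3 (cardiac myosin binding protein C) lies along the thick filament and restrains the heads.

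The 3 heavy chain genes carry microRNAs in introns, on the same strand as the gene. Their mature sequences (RefSeq, GRCm38.p6) are shown because introns of these host genes hold them, with the seed (bases 2 to 8) in capitals. Whether a change of a host gene's RNA extends to its microRNA was not tested. The mature forms were not measured in these poly-A libraries. The hairpins lie at chr14:54949060-54949142 (minus strand, intron 29 of Myh6), chr14:54975700-54975776 (minus strand, intron 31 of Myh7) and chr2:155622880-155622958 (plus strand, intron 19 of Myh7b), counted on the longest coding transcript of each gene. The seeds of the first and second are the same, UAAGACG, and that of the third is UAAGACU.
mmu-miR-208a-3p (Myh6): aUAAGACGagcaaaaagcuugu
mmu-miR-208b-3p (Myh7): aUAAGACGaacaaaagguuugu
mmu-miR-499-5p (Myh7b): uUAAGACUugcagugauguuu

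Myh6 and Myh7 are neighbours on chromosome 14 and near copies in sequence. Of all windows of 50 bases in the longest coding transcript of Myh7 (GENCODE vM21, GRCm38), 22.2% also occurred in Myh6, and 22.6% of those of Myh6 occurred in Myh7. The longest run that both share without a difference is 245 bases of coding sequence, exons 30 and 31 of Myh6 (chr14:54948612-54948725 and chr14:54948327-54948457, minus strand) and exons 32 and 33 of Myh7 (chr14:54975234-54975347 and chr14:54974947-54975077, minus strand). A read from inside this run cannot be given to either gene, and how the counting treated such reads is not given in the sources used here. The run is printed to show the extent of this limit.
Myh6 and Myh7, shared run: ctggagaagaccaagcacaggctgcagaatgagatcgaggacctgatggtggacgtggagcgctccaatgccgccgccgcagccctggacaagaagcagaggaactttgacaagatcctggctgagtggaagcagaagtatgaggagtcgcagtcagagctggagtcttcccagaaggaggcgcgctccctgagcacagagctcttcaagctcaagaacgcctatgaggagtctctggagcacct
No window of 50 bases in the longest coding transcript of the other 7 members occurred in another gene, read on the sense strand. That transcript has 943 bases for Myl4 and 937 for Myl3, whereas the length column of the deposited table lists 3272 and 1125. Sequence outside these transcripts was not examined.

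Library totals were between 23747014 and 27159228 counts in WT and between 26542930 and 31393393 in KO, and the 9 members took 2.99% to 3.44% of the counts in WT and 2.82% to 3.61% in KO. Sdhaf4, the targeted gene, was between 14.3 and 30.3 CPM in WT (CPM, counts per 1000000 of a library total that the TMM method of edgeR adjusts) and between 2.25 and 2.73 in KO, a log2 fold change of -3.39 (SE 0.16). Cardiomyocyte genes were high in all libraries (summed level of 9 markers 38119 to 41502 CPM in WT and 26997 to 39021 in KO). The atrial markers Sln, Bmp10 and Mybphl were near 0 (mean at most 0.126 CPM in either genotype) in these libraries labelled as ventricular wall, while all 13 atrial markers listed summed to 275 to 351 CPM in WT and 228 to 258 CPM in KO. 2 KO libraries stood apart in the genes described here. KO replicate 6 had by far the highest Myh7 of all libraries, and KO replicate 3 had the highest level among the KO libraries of 6 members (Myh6, Myh7b, Myl2, Myl3, Mylk3 and Mybpc3). KO replicate 3 was also the lowest KO library for Nppa (7399 CPM, against 10076 to 15655), Nppb, Ankrd1, Acta1 and Xirp2, genes that rise in the stressed heart. Test results of single members, and the Myh7 share, that rest on either library are given with and without it. Sums and ratios per length are given over all libraries.

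Of the 8 members tested, 3 rose in KO (Myh7, Mybpc3 and Myl4), 3 fell (Myl2, Myl3 and Myh7b) and 2 were not called (Myh6 and Mylk3), at an adjusted p under 0.05 by the quasi-likelihood test of edgeR with Benjamini-Hochberg adjustment over 17155 rows. The same threshold called 51.1% of all rows tested, 25.6% as higher and 25.5% as lower in KO. At the stricter threshold of the methods (an adjusted p below 0.005 with a change of more than 1 on the log2 scale), 1 of the 8 passed, Mybpc3, against 10.2% of all rows. For 3 of the 8, all KO libraries lay on one side of all WT libraries (Myh7, Myl3 and Mybpc3), against 30.1% of all rows. The median log2 fold change over the 8 was -0.22, against 0.0022 over all rows. Without KO replicate 3, 5 members were called lower, with Myh6 and Mylk3 added. RNA from bulk tissue cannot tell fewer cardiomyocytes from less myosin RNA per cardiomyocyte. Markers of other cells moved with genotype as well: 7 of 7 fibroblast markers were higher in KO (summed level 1379 to 1613 CPM in WT and 2291 to 4236 in KO), and the part of this shift in the members' values was not tested.

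**Figure D1:**
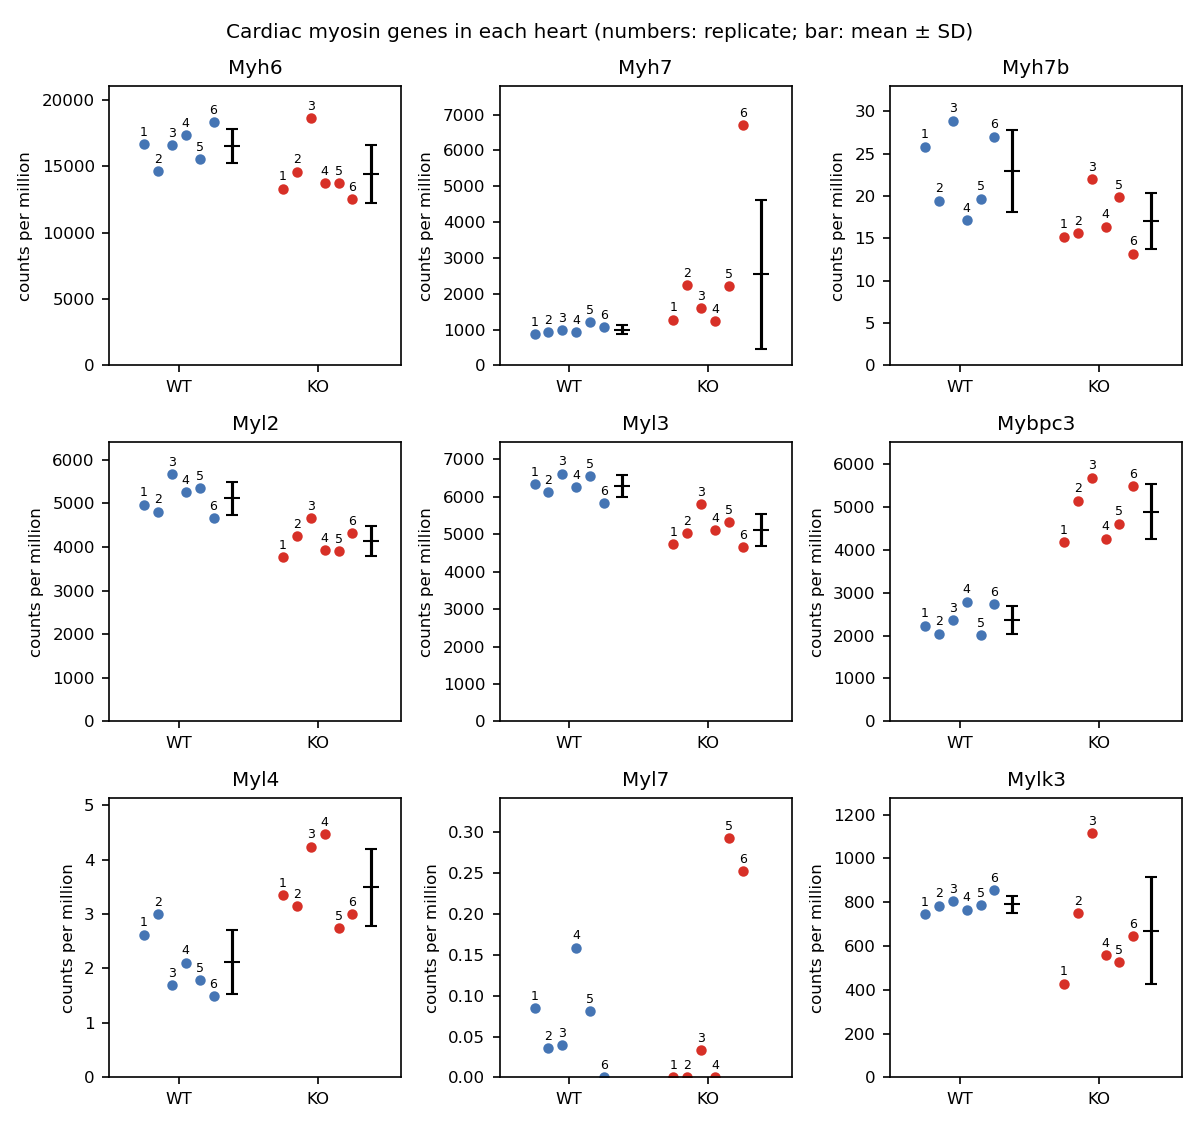
CPM of the 9 cardiac myosin genes in each heart, WT in blue and KO in red, with replicate numbers above the points and the mean ± SD as a bar (none for Myl7, which rests on 0 to 9 counts). KO replicate 6 stands apart in Myh7 (6708 CPM), KO replicate 3 stands apart in Myh6 (18628 CPM) and Mylk3 (1114 CPM), and the genotypes do not overlap in Myh7, Myl3 and Mybpc3.

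Myh6 (MGP_C57BL6NJ_G0021735) encodes the α heavy chain and lies at chr14:51396719-51426831 on the minus strand of the C57BL/6NJ assembly that the table uses. It took the most counts of all members, though not per length (the order per kilobase is given below), with a lowest, median and highest level of 14633, 16641 and 18336 CPM in WT and 12502, 13720 and 18628 CPM in KO. All KO libraries other than replicate 3 lay below the lowest WT library, and replicate 3 lay above the highest. The log2 fold change was -0.20 (SE 0.09), which missed the threshold after adjustment (adjusted p = 0.0838 by edgeR, 0.0468 before adjustment). Without KO replicate 3 the change was -0.29 (adjusted p = 0.00137), so 1 library decided this call. A row without a gene name (MGP_C57BL6NJ_G0008281) overlaps the Myh6 span on the same strand, and its level is not reported here.

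Myh7 (MGP_C57BL6NJ_G0021736, chr14:51430588-51464175, minus strand, C57BL/6NJ) encodes the β heavy chain. In WT its lowest, median and highest levels were 876, 954 and 1202 CPM. In KO they were 1239, 1900 and 6708 CPM. Every KO heart lay above every WT heart, KO replicates 1 and 4 by little, and KO replicate 6 lay far above the other KO hearts (1239 to 2249 CPM). The log2 fold change was 1.35 (SE 0.41, adjusted p = 0.0163), the least precise among the members. It was the largest over all libraries, but without KO replicate 6 it was 0.78 (adjusted p = 0.00169), below that of Mybpc3 (1.01), and under a replicate block both were level (1.06 and 1.05).

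4 other rows overlap the Myh7 span. MGP_C57BL6NJ_G0008282, without a gene name, lies on the same strand and Gm17428 on the opposite strand, and their levels are not reported here. The other 2, without a gene name, lie on the opposite strand within or across this span. The first (MGP_C57BL6NJ_G0003354, chr14:51428582-51434252, plus strand) lay between 135 and 182 CPM in WT and between 129 and 359 CPM in KO, with a log2 fold change of 0.29 (adjusted p = 0.315). The second (MGP_C57BL6NJ_G0003355, chr14:51432932-51433262, plus strand) lay between 1.10 and 2.68 CPM in WT and between 2.82 and 36.5 CPM in KO, a log2 fold change of 2.56 (SE 0.64, adjusted p = 0.00571). KO replicate 6 was the highest library in both. Whether reads were counted by strand is not given in the sources used here, so reads from Myh7 and from the rows on its opposite strand cannot be told apart. Strand could not separate the row on the same strand in either case.

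Myh7b (MGP_C57BL6NJ_G0027162, chr2:165148097-165171179, plus strand, C57BL/6NJ) encodes a slow-type heavy chain found at low levels in heart. Its lowest, median and highest levels were 17.1, 22.7 and 28.9 CPM in WT and 13.2, 16.0 and 22.0 CPM in KO. The genotypes overlapped, and 3 of 6 WT hearts lay above every KO heart. The log2 fold change was -0.43 (SE 0.15, adjusted p = 0.0235), and it missed the threshold in 4 of 12 fits with 1 library removed (WT replicate 3, adjusted p = 0.0528, WT replicate 6, 0.0543, KO replicate 1, 0.053, and KO replicate 2, 0.0501). Its span overlaps Trpc4ap on the other strand, which was not called (log2 fold change -0.11, adjusted p = 0.11). A row without a gene name (MGP_C57BL6NJ_G0008787) overlaps the Myh7b span on the same strand, and its level is not reported here.

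As a share of the counts on both main heavy chains, Myh7 took 4.99%, 5.53% and 7.17% in the lowest, median and highest WT heart and 7.87%, 11.1% and 34.9% in KO. The groups did not overlap. The means were 5.71% ± 0.797 in WT and 14.5% ± 10.3 in KO (SD, n = 6 each), a difference of 8.79 percentage points with a two-sided exact permutation p of 0.00216, the smallest that 6 against 6 allows (0.00289 after adjustment over 4 shares). Counting error was small beside this spread: the 95% Wilson interval was 34.8% to 35.0% in KO replicate 6 and 7.80% to 7.94% in KO replicate 3, and covers counting error only. Without KO replicate 6 the difference was 4.71 percentage points. With counts divided by the length column of the table, the means were 5.26% and 13.5%.

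The deposited FPKM gave a lower share, 2.84% ± 0.410 in WT and 7.87% ± 6.37 in KO. The lengths behind these FPKM values, found from the counts and totals, were 2315 bases for Myh6 and 4804 for Myh7, whereas the length column of the same table lists 6122 and 6685. Among 12117 rows with at least 50 counts in every library, the 2 lengths were within 2% of each other in 29.6%. The order of the genotypes was the same on each scale, but the level of the share was not, and levels between genes are therefore given below per length of the length column.

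**Figure D2:**
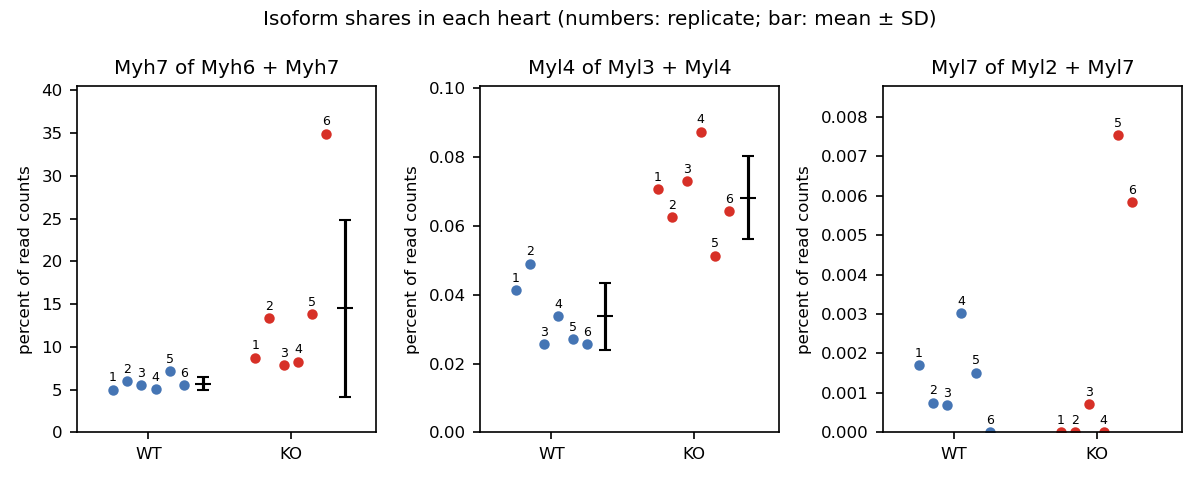
Percent of read counts taken by Myh7 among Myh6 and Myh7, by Myl4 among Myl3 and Myl4 and by Myl7 among Myl2 and Myl7 in each heart, WT in blue and KO in red, with replicate numbers and the mean ± SD as a bar (none for Myl7). The genotypes do not overlap for Myh7 and Myl4, KO replicate 6 stands at 34.9% for Myh7, and 3 of 6 KO hearts are at 0 for Myl7.

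The heavy chains together were somewhat lower in KO by their means, with overlap (KO over WT 0.960 per kilobase of the length column, 0.918 on the deposited FPKM). Per kilobase, Myh6 and Myh7 summed to a lowest, median and highest level of 2529, 2857 and 3155 CPM in WT and 2368, 2648 and 3281 CPM in KO. KO replicate 3 was the highest of all 12 libraries in this sum, and KO replicates 1 and 4 lay below every WT heart. KO replicate 6 lay within the WT range, although its Myh6 was the lowest of all 12 libraries (12502 CPM before division by length). On the deposited FPKM the sum was 6638, 7313 and 8366 in WT and 6118, 6545 and 8060 in KO. There, KO replicates 1, 4, 5 and 6 lay below every WT heart. No test was set for this sum.

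The promoters of Myh6, Myh7 and Mybpc3 are shown as the start regions of the most abundant heavy chain and of the members with the largest rises over all libraries. Each window is from RefSeq (GRCm38.p6), runs in the direction of the gene and ends shortly after the annotated start. Capitals mark matches to CATTCC (the MCAT core, bound by TEAD factors), to the TATA box TATAAA or to the GATA site AGATAA, sought on both strands, so that MCAT on the other strand reads GGAATG. These are the windows at chr14:54966558-54966857 (minus strand), chr14:54994577-54994876 (minus strand, the first of 2 that are listed for Myh7) and chr2:91117894-91118193 (plus strand).
Myh6: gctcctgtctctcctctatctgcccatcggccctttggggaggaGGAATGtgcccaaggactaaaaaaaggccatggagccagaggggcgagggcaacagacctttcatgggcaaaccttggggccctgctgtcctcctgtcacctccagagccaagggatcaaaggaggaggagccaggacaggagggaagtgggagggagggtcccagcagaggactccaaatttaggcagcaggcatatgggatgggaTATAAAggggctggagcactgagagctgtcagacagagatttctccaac
Myh7: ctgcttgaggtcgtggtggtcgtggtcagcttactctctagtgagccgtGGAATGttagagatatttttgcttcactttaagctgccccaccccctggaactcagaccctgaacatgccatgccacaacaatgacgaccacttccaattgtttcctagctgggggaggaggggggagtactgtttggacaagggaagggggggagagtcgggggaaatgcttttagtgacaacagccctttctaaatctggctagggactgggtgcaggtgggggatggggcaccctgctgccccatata
Mybpc3: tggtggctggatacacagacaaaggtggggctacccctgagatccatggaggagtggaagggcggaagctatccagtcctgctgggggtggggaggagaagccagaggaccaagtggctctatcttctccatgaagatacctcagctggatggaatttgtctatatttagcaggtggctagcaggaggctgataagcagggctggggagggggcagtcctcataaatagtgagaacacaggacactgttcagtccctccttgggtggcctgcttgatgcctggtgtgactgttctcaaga
The Myh6 and Myh7 windows each held 1 MCAT match, at positions -206 to -201 and -201 to -196 from the annotated start. The Myh6 window also held TATAAA, at positions 2 to 7, which lie after the annotated start. The Mybpc3 window held none of these letters. Among 32851 promoter windows of the same length, 14.7% held CATTCC, 13.6% TATAAA and 11.2% AGATAA, on either strand, and 1.63% held a CArG box, which none of these 3 windows held. A match is a description of letters only.

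Mybpc3 (MGP_C57BL6NJ_G0026563, chr2:95689011-95707370, plus strand, C57BL/6NJ) rose evenly across the KO hearts. Its lowest, median and highest levels were 2011, 2296 and 2787 CPM in WT and 4175, 4872 and 5673 CPM in KO. Every KO heart was well above every WT heart. The log2 fold change was 1.05 (SE 0.10, adjusted p = 2.17e-07), a 2.07-fold rise, and lay between 1.00 and 1.10 in all 12 fits without 1 library. No other row overlaps its span.

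Per length, Mybpc3 stood at 0.178, 0.196 and 0.225 of the summed Myh6 and Myh7 level in the lowest, median and highest WT heart and at 0.415, 0.427 and 0.453 in KO. The mean was 0.198 ± 0.0165 in WT and 0.429 ± 0.0132 in KO (SD, n = 6 each), a narrow range in both genotypes, and KO replicate 3, the highest KO heart in Myh6, was also the highest in Mybpc3. On the deposited FPKM the ratio was 0.0773 ± 0.00626 in WT and 0.175 ± 0.0119 in KO, also without overlap. These ratios are descriptions, with no test set for them.

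**Figure D3:**
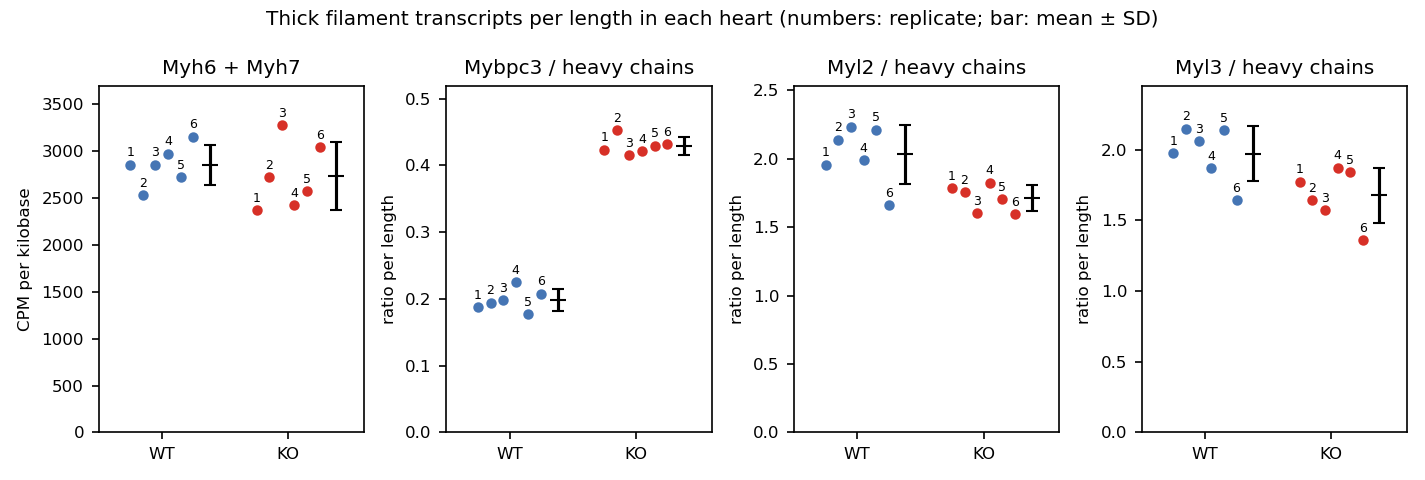
Summed level of Myh6 and Myh7 (CPM per kilobase of the length column) and the per-length ratios of Mybpc3, Myl2 and Myl3 to that sum in each heart, WT in blue and KO in red, with replicate numbers and the mean ± SD as a bar. Of these 4 panels, that of the Mybpc3 ratio alone separates the genotypes (0.178 to 0.225 in WT, 0.415 to 0.453 in KO).

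Both ventricular light chains fell by about the same amount. Myl2 (MGP_C57BL6NJ_G0030470, chr5:130527791-130542245, plus strand, C57BL/6NJ), the regulatory chain, had a lowest, median and highest level of 4656, 5113 and 5674 CPM in WT and 3761, 4090 and 4668 CPM in KO. The genotypes overlapped in KO replicate 3 and WT replicate 6 alone, and by little. Its log2 fold change was -0.31 (SE 0.07, adjusted p = 0.00141). A row without a gene name (MGP_C57BL6NJ_G0030471) overlaps the Myl2 span on the other strand, and its level is not reported here.

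Myl3 (MGP_C57BL6NJ_G0035853, chr9:115983371-116014251, plus strand, C57BL/6NJ), the essential chain, had levels of 5836, 6301 and 6620 CPM in WT and 4660, 5074 and 5806 CPM in KO. All KO hearts lay below all WT hearts, KO replicate 3 by the least. Its log2 fold change was -0.30 (SE 0.07, adjusted p = 0.00104). Its span overlaps Pth1r on the other strand, a far weaker row (mean 13.8 CPM in WT) that fell by 0.50 on the log2 scale (adjusted p = 0.000135). Per length, Myl2 stood at 1.03 ± 0.0383 of Myl3 in WT and 1.03 ± 0.086 in KO (SD, n = 6 each). Per heavy chain, Myl2 was 2.03 ± 0.215 in WT and 1.71 ± 0.0956 in KO, and Myl3 was 1.97 ± 0.193 and 1.68 ± 0.194, with overlap in both.

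The atrial light chains remained rare. Myl4 (MGP_C57BL6NJ_G0019669, chr11:111067539-111095647, plus strand, C57BL/6NJ) lay at 1.49, 1.94 and 3.0 CPM in the lowest, median and highest WT heart and 2.74, 3.24 and 4.47 CPM in KO (39 to 83 counts per library in WT and 83 to 130 in KO). The highest WT heart, replicate 2, overlapped the lowest KO hearts. The log2 fold change was 0.72 (SE 0.19, adjusted p = 0.00515). A row without a gene name (MGP_C57BL6NJ_G0011099) overlaps the Myl4 span on the other strand, and its level is not reported here. As for Myh7, reads from the 2 strands cannot be told apart.

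As a share of Myl3 and Myl4 counts, Myl4 rose from 0.0337% ± 0.00967 to 0.0681% ± 0.0121 (SD, n = 6 each), and here the groups did not overlap (0.0255% to 0.0490% and 0.0514% to 0.0873%). The exact permutation p was 0.00216 (two-sided, the smallest possible, 0.00289 adjusted over 4 shares). Myl3, the main part of the denominator, fell in KO. Both atrial chains together took 0.0192% ± 0.00565 of the counts on the 4 light chains in WT and 0.0387% ± 0.00605 in KO, with the same p.

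Myl7 (MGP_C57BL6NJ_G0018404, chr11:3066789-3068934, minus strand, C57BL/6NJ) had 0 to 4 counts per library in WT and 0 to 9 in KO and did not pass the filter on low counts. In KO, 3 hearts had no count, replicate 3 had 1, replicate 6 had 7 and replicate 5 had 9. A count of 0 in KO replicate 1 allows a share of up to 0.00256% of Myl2 and Myl7 (3 counts of the total). The share of Myl7 was 0% to 0.00302% in WT and 0% to 0.00752% in KO, with an exact permutation p of 0.481 (two-sided, also 0.481 adjusted over 4 shares), so no difference was detectable at this depth.

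Mylk3 (MGP_C57BL6NJ_G0034397, chr8:89595545-89653380, minus strand, C57BL/6NJ), the kinase of Myl2, was nearly the same in all WT hearts and widely spread in KO. Its lowest, median and highest levels were 745, 786 and 856 CPM in WT and 428, 601 and 1114 CPM in KO. KO replicate 3 was the highest of all 12 libraries, replicate 2 lay within the WT range, and the other KO hearts lay below it. The log2 fold change was -0.24 (SE 0.19, adjusted p = 0.315), and without KO replicate 3 it was -0.45 (adjusted p = 0.00362). A row without a gene name (MGP_C57BL6NJ_G0004686) overlaps the Mylk3 span on the other strand, and its level is not reported here. Per length, Mylk3 stood at 0.0373 ± 0.00379 of Myl2 in WT and 0.0383 ± 0.0106 in KO. The KO mean rests in part on KO replicate 3 (0.0574, other KO hearts 0.0274 to 0.0424), and the medians were 0.0357 in WT and 0.0350 in KO.

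**Figure D4:**
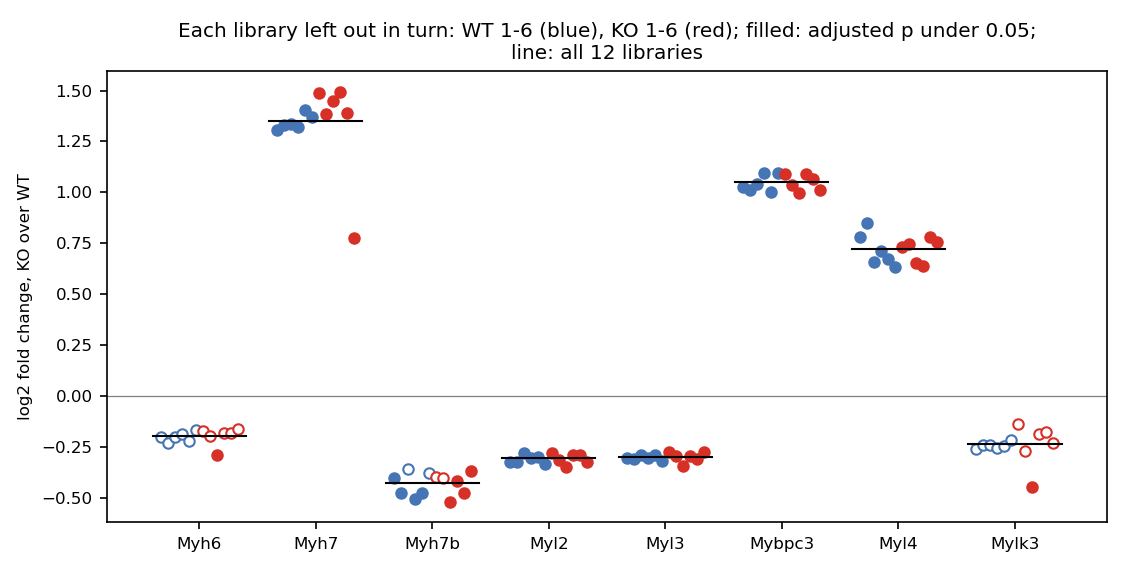
Log2 fold change (KO over WT) of the 8 tested members when each of the 12 libraries was left out in turn, WT libraries in blue and KO libraries in red from replicate 1 to 6, filled where the adjusted p was under 0.05, with the value over all libraries as a line. Leaving out KO replicate 6 lowers Myh7 to 0.78, and leaving out KO replicate 3 brings Myh6 (-0.29) and Mylk3 (-0.45) past the threshold.

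Per kilobase, the order of the members in WT was Myl2 (5759 ± 425 CPM), Myl3 (5590 ± 257), Myh6 (2700 ± 213), Mybpc3 (567 ± 80.0), Mylk3 (214 ± 10.2), Myh7 (149 ± 17.8), Myh7b (3.73 ± 0.783), Myl4 (0.646 ± 0.179) and Myl7 (0.113 ± 0.0934), as mean ± SD of 6 hearts. Myl2 and Myl3 differed by less than their spread in WT, and no other neighbours in this order overlapped. On the deposited FPKM the order in WT was the same, but Myl3 (7599 ± 224) was then within the spread of Myh6 (7133 ± 614). In KO, Mybpc3 (1174 ± 152) was still below Myh6 (2355 ± 355). Myh7 (381 ± 312) and Mylk3 (181 ± 65.8) changed places in KO by their means, within the spread of Myh7. The length column gives 3272 bases for Myl4 and 590 for Myl7, and on the deposited FPKM, with other lengths, Myl4 also stood between Myh7b and Myl7.

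Myh7 varied more between KO hearts than any other tested member in relation to its mean. The genes whose residuals from the genotype means followed those of Myh7 most closely over the 12 libraries, among 11167 genes with a mean of at least 5 CPM, were the unnamed row MGP_C57BL6NJ_G0003355 on its other strand (Pearson r 0.952), Tom1 (0.951), Myzap (0.928) and Phrf1 (0.923). These values rest in part on KO replicate 6, and without it r was 0.788, 0.740, 0.802 and 0.871. The points share library and depth, and the genes were picked as the highest of many, so r is a description. Among the members compared, r with Myh7 was between -0.34 (Myh6) and 0.37 (Mybpc3). Without KO replicate 6 it was between 0.07 (Myh6) and 0.27 (Mylk3), with 0.23 for Mybpc3. Myl7 had too few counts for such a comparison, and Myl4 had a mean below 5 CPM and was not compared either.

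Around the members, the other striated muscle myosins stayed low. Among 13 that the table lists, 6 were tested, of which 2 rose, 2 fell and 2 were not called (median log2 fold change -0.09). For each list here and below, the share over all rows tested was 25.6% called higher and 25.5% called lower. Myh8, the perinatal heavy chain, had no count in WT hearts other than replicate 1 (0.169 CPM) and lay between 0.960 and 1.66 CPM in every KO heart (adjusted p = 1.27e-06). It stayed far below Myh7b in every heart. Myl6b rose by 1.11 on the log2 scale (SE 0.17) to a mean of 3.47 CPM. Mybpc2, the fast skeletal relative of Mybpc3, fell by 1.72 (SE 0.16), from 9.83 to 19.1 CPM in WT to 3.82 to 6.10 CPM in KO, so the cardiac and the fast myosin binding protein C moved in opposite directions. Mylpf, the fast regulatory light chain, fell by 1.81 (SE 0.45) at a mean of 1.38 CPM in WT. Of 4 skeletal muscle markers tested 3 fell, Mybpc2 and Mylpf among them, and their summed level was 12.7 to 33.6 CPM in WT and 5.13 to 11.2 in KO.

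Among 12 tested genes that phosphorylate, dephosphorylate or fold myosin, 4 rose, 1 fell and 7 were not called (median 0.11). The myosin chaperone Unc45b fell by 0.49 on the log2 scale (SE 0.05, adjusted p = 6.76e-07), with 200 to 234 CPM in WT and 136 to 161 CPM in KO. Smyd1, a methyltransferase needed for myofibril assembly, rose by 0.46 (SE 0.07, adjusted p = 2e-05). These partners in thick filament assembly thus moved in opposite directions, without overlap of the genotypes in either. The myosin phosphatase subunit Ppp1r12a rose by 0.46 (SE 0.06), the kinase Camk2d by 0.38 (SE 0.05) and the smooth muscle kinase Mylk by 0.29 (SE 0.09), whereas the catalytic subunit Ppp1cb was not called (0.10, adjusted p = 0.11).

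Of 12 tested genes of the thick filament and M band, 4 rose, 4 fell and 4 were not called (median 0.009). Fhl1, a LIM protein bound to titin and Mybpc3, rose from 91.8 to 113 CPM in WT to 240 to 454 CPM in KO, a log2 fold change of 1.73 (SE 0.14, adjusted p = 2.12e-07). Fhl2 rose by 0.57 (SE 0.10) and the M-band protein Myom1 by 0.30 (SE 0.08). Obsl1, a protein of the M band, fell by 0.53 (SE 0.05). Titin (Ttn), the scaffold on which the thick filament is laid, was not called (-0.14, SE 0.06, adjusted p = 0.0686).

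Of 30 tested regulators of myosin genes, 10 rose, 11 fell and 9 were not called (median 0.04), against 25.6% of all rows called higher and 25.5% lower. The thyroid hormone receptor genes Thra and Thrb, whose products are known to drive Myh6 and restrain Myh7, fell by 0.44 (SE 0.06, adjusted p = 1.07e-05) and 0.35 (SE 0.08, adjusted p = 0.00168), and their partner Rxra fell by 0.57 (SE 0.05). Dio2, the deiodinase that activates thyroid hormone, rose from 0.590 to 2.03 CPM in WT to 3.71 to 26.2 CPM in KO, a log2 fold change of 3.33 (SE 0.45, adjusted p = 7.39e-05). Sox6, a repressor of slow muscle genes, fell by 0.39 (SE 0.07). The cardiac transcription factors Gata4 and Nkx2-5 and the MCAT-binding factor Tead1 rose by 0.63 (SE 0.06), 0.49 (SE 0.08) and 0.56 (SE 0.07), and Hopx, a cofactor that restrains Srf, fell by 1.00 (SE 0.10). These are levels of RNA, and their part in the change of any member was not tested.

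**Figure D5:**
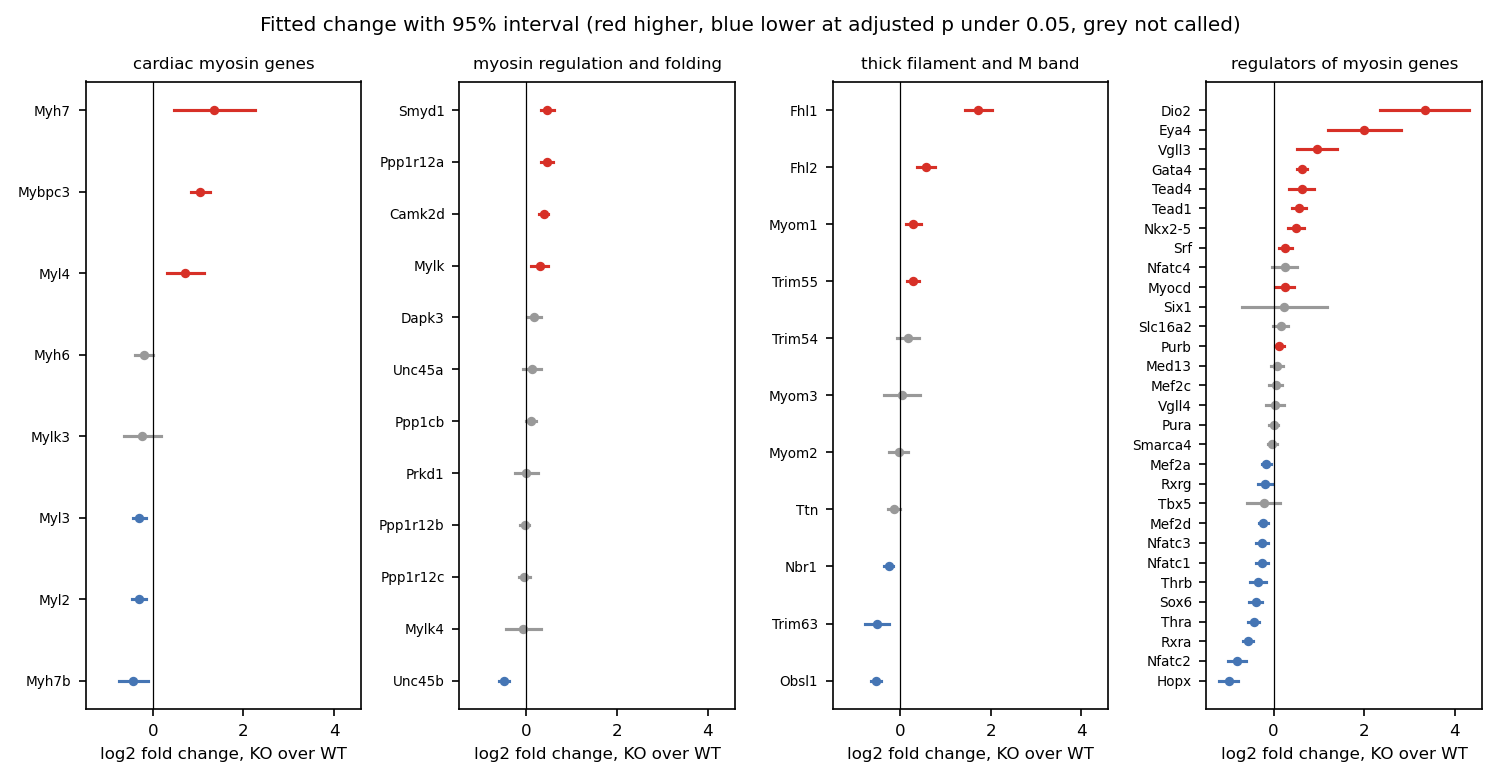
Log2 fold change (KO over WT) with its 95% interval for the tested cardiac myosin genes and for tested genes of myosin regulation and folding, of the thick filament and M band and of myosin gene regulation, red where higher and blue where lower in KO at an adjusted p under 0.05 and grey where not called. Each group holds genes that rose and genes that fell, and Myh7 has the widest interval among the members (0.46 to 2.25).

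Markers of atrial muscle moved in both directions: of 10 tested 3 rose, 4 fell and 3 were not called (median log2 fold change -0.22, and a summed level that was lower in every KO heart than in every WT heart), with Dkk3 higher by 3.21 (SE 0.17) and Stard10 and Kcnj3 lower by 2.06 (SE 0.12) and 1.54 (SE 0.11) on the log2 scale. Of 7 ventricular markers tested 1 rose (Fhl2), 1 fell (Kcnip2, log2 fold change -1.20, SE 0.10) and 5 were not called, Irx3 among them (0.28, adjusted p = 0.102). Of 9 cardiomyocyte markers, 2 rose, 4 fell and 3 were not called. Beside these marker counts, 25.6% of all rows tested were called higher and 25.5% lower. The calcium pump Atp2a2 and its inhibitor Pln fell by 0.99 (SE 0.11) and 0.79 (SE 0.08), and the thin filament inhibitor Tnni3 fell by 0.89 (SE 0.07), each by more than Myl2 or Myl3. The rise of fibroblast markers (Col1a2 by 1.96, SE 0.22, Pdgfra by 0.87, SE 0.08, and Dcn by 0.63, SE 0.08) and the fall of part of the cardiomyocyte markers stood beside the lower Myl2 and Myl3, and their part in it was not tested.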

How the data were processed

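Poly-A RNA of ventricular wall from 6 WT and 6 KO mice was analysed, grouped by the genotype and replicate in the sample labels. The authors deposited 1 table with the raw HTSeq read count of each gene and library, and with FPKM values that the authors computed from counts, a gene length and the library total. The submitters' processing notes name HISAT2 2.0.5 and mm10, whereas the identifiers are those of the C57BL/6NJ assembly, so positions in the table were not joined with those of GRCm38. The authors' group means, log2 fold changes and p-values in the table were not used.

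The counts were tested with the robust quasi-likelihood test of edgeR 4.0.16 (R 4.3.3) after filterByExpr and TMM, with no covariate. Rows without a gene name held 12.0% to 14.9% of the counts and were kept. Shares of counts were compared by two-sided exact permutation tests. The genes named are the 9 members, Sdhaf4, the 3 genes with the smallest adjusted p in each list, genes of a list that share reads, span or role with a member, and the 5 genes most like Myh7; 1 of these 5 and 1 gene of the thick filament and M band list are not reported here. The members, lists and tests were chosen with earlier results of these data known. The cell type, myosin and regulator lists were written from general knowledge; Myh13, Myl11, Hsp90aa1, Dio3, Actn2 and Lyz2 were not analysed here. The labels do not state that each sample is a separate animal, so p-values measure the spread between these samples. On simulated counts for 17155 genes, the test recovered 36 of 66, 49 of 68 and 58 of 59 genes changed by 0.5, 1 and 2 on the log2 scale, with 9 false calls. The simulation changed a far smaller part of the genes than the 51.1% of rows called in the data. These rates therefore may not hold for the data. As alternatives, the fit was repeated with 3 other scalings (DESeq2 size factors, upper quartile, library size), with limma-voom (limma 3.58.1), with DESeq2 1.42.0, with no filter, rows without a name left out, a replicate block and each library left out; dividing counts by the length column was added after the data had been seen.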

Additional observations from a re-analysis of the deposited data

Results flagged for a closer look

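Among 118 groups of 6 libraries examined, 13 held a library far from the others of its genotype, where chance gives about 5.9. KO replicate 6 was high for Myh7 (6708 CPM, others 1239 to 2249), for the Myh7 share (34.9%, others 7.87% to 13.9%) and for both unnamed rows on the other strand of Myh7 (359 CPM, others 129 to 196, and 36.5 CPM, others 2.82 to 8.10). These 4 values come from 1 locus and 1 library.

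KO replicate 3 was high for Myh6 (18628 CPM, others 12502 to 14603), for the calcium pump gene Atp2a2 (7971 CPM, others 4525 to 5645) and for the potassium channel gene Kcnj3 (27.8 CPM, others 16.6 to 19.6). In WT, replicate 2 was low for Fhl1 (91.8 CPM) and Hopx (177 CPM), replicate 1 was high for Mylpf (2.88 CPM) and was the WT heart with counts for Myh8 (0.169 CPM), replicate 6 was low for Tnni3 (3332 CPM) and replicate 3 was high for Unc45b (234 CPM).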

How the results depend on the processing

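Over 20 alternatives each, the direction of all 8 tested members stayed as reported, with log2 fold changes of 1.00 to 1.10 for Mybpc3, 0.78 to 1.49 for Myh7, 0.63 to 0.85 for Myl4, -0.35 to -0.28 for Myl2 and -0.34 to -0.28 for Myl3, and these 5 calls held in each. When 1 library was left out, Myh6 ranged from -0.29 to -0.16, Mylk3 from -0.45 to -0.14 and Myh7b from -0.52 to -0.36, and the number of members called lower ranged from 2 to 5. Without the filter on low counts Myh7b was -0.43 with an adjusted p of 0.0503 (the cause was not tested), and Myl7 was 0.52 (adjusted p = 0.705). Under the replicate block, Myh7 was 1.06 (adjusted p = 0.0312), and 4123 rows were called higher and 4110 lower, against 4391 and 4376; the block changed no call of a member. Same-numbered libraries correlated at -0.16 to 0.02 in their deviations. A pairing can leave no such correlation, so whether the numbers pair the samples cannot be told from these values. Myl7 rests on 0 to 9 counts, and its share cannot be resolved at this depth.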

Other observations

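Smooth and nonmuscle myosins moved in both directions: of 8 tested, 4 rose, 1 fell and 3 were not called. RNA from bulk tissue does not show which cells of the heart they come from. Their summed level was 1279 to 1504 CPM in WT and 1693 to 1931 CPM in KO, most of it from the light chain Myl12a (mean 855 and 1124 CPM). The nonmuscle heavy chain Myh10 rose by 0.40 on the log2 scale (SE 0.06) and the light chain Myl6 by 0.46 (SE 0.06), whereas Myh14 fell by 1.13 (SE 0.13). The smooth muscle heavy chain Myh11 was not called (-0.34, SE 0.20, adjusted p = 0.177). Of 6 smooth muscle markers 1 rose (Smtn, by 0.38, SE 0.06), 2 fell (Acta2, by 0.44, SE 0.15, and Cnn1, by 1.10, SE 0.36) and 3 were not called. Of 7 endothelial markers 4 rose, 1 fell and 2 were not called, with Vwf higher by 1.08 (SE 0.12), Emcn higher by 0.34 (SE 0.06) and Tek lower by 0.30 (SE 0.05). Of 6 macrophage markers 1 rose (Mrc1, by 0.43, SE 0.08), 2 fell (Adgre1, by 0.62, SE 0.16, and Csf1r, by 0.26, SE 0.09) and 3 were not called. Beside the counts for these lists, 25.6% of all rows tested were called higher and 25.5% lower.

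Of 7 tested genes of the fetal and stress program, 5 rose, 1 fell (Atp2a2) and 1 was not called, against 25.6% of all rows called higher and 25.5% lower. Nppb rose by 2.56 (SE 0.18), Ankrd1 by 3.08 (SE 0.14), Xirp2 by 2.51 (SE 0.15) and Acta1 by 2.78 (SE 0.37) on the log2 scale, and Nppa, an atrial hormone also made in the fetal and stressed ventricle, by 5.65 (SE 0.37), from 156 to 408 CPM in WT to 7399 to 15655 CPM in KO. The order of the KO hearts in these genes was not that in Myh7: KO replicate 6 was highest in Nppb and Ankrd1 and not in Nppa (12639 CPM), and KO replicate 4, lowest in Myh7, had an Nppa level of 14901 CPM.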
